A study of Mus musculus with 10 samples.

Results

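The difference that goes with the Pdgfra label was measured in 8 RNA-seq libraries of cells sorted by FACS from adult mouse lung mesenchyme, out of 10 libraries in the series. The 4 labelled libraries are the groups Axin2:Pdgfra (lineage label G_T, replicates 1 and 2) and Pdgfra (lineage label GFP, replicates 1 and 2). The 4 unlabelled libraries are the groups Axin2 (lineage label tdt, replicates 1 and 2) and Negative (lineage label neg, replicates 0 and 2). All 8 came from mice of the genotype Axin2CreERT2:tdT:PdgfraEGFP, so the Axin2 recombinase, the tdT reporter and the EGFP allele were carried by the unlabelled cells too. The Wnt2 group, replicates 1 and 2 from Wnt2CreERT2:R26REFYP mice, was left out of the contrast and is only set beside it. For each gene the mean of the 2 labelled group means minus the mean of the 2 unlabelled group means was taken, with the Axin2 label as a second factor. Of 14854 genes in the files, 13867 with a log2 value of 6 or more in at least 2 of the 8 libraries were tested. In every list of values that follows, labelled libraries are in the order Axin2:Pdgfra 1 and 2, Pdgfra 1 and 2, and unlabelled ones in the order Axin2 1 and 2, Negative 0 and 2. Levels and differences are on the log2 scale of the files, and SE is the standard error of a difference.

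Platelet-derived growth factor receptor alpha is a receptor tyrosine kinase of fibroblasts, lipofibroblasts and myofibroblasts of the lung, whereas the beta receptor is the one carried by pericytes and vascular smooth muscle. In the developing lung PDGF-A from the epithelium acts on cells with the alpha receptor and is needed for the alveolar myofibroblasts that lay down elastin. EGFP driven from the Pdgfra gene reports cells in which that gene is active when they are sorted, whereas CreERT2 marks, after tamoxifen, cells in which Axin2 was active at that time and their descendants. The labels do not give the tamoxifen schedule, the sort gates or the number of animals per library, so p-values measure the spread between these libraries, which may be technical. Transcripts of EGFP and tdT have no row in the tables, so the labels could be checked only against the mouse genes.

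The label was first checked against its own gene. Pdgfra stood at 14.91, 15.21, 14.64 and 14.92 in the labelled libraries and 13.49, 13.000, 12.002 and 13.34 in the unlabelled ones. All 4 labelled libraries lay above all 4 unlabelled ones, by 1.96 ± 0.28 (SE, adjusted p = 0.000747). The unlabelled libraries nevertheless held Pdgfra at levels above the median gene of each library. Pdgfrb, which encodes the beta receptor of pericytes and smooth muscle, stood at 12.61, 12.67, 12.59 and 12.53 in the labelled libraries and 16.32, 16.94, 15.49 and 15.02 in the unlabelled ones. The groups did not overlap, and the difference was -3.35 ± 0.21 (SE, adjusted p = 1.95e-06). In such bulk samples fewer cells of a type and less RNA per cell cannot be told apart. Pdgfa, the ligand of the alpha receptor, also fell with the label, with a difference of -3.22 ± 0.51 (SE, adjusted p = 0.0018). The other 4 of the 7 PDGF genes tested (2 members lower and 1 higher past the threshold) did not pass, among them the ligand Pdgfd at 3.56 (adjusted p = 0.0807) and the receptor-like Pdgfrl at 2.70 (adjusted p = 0.0694). Axin2, the gene of the other label, differed by 0.07 ± 0.57 (SE, adjusted p = 0.975), and Wnt2 by -0.06 ± 0.69 (SE, adjusted p = 0.983), and neither passed. With one prior variance for all genes in place of limma's trend and robust priors, Pdgfrb and Pdgfa passed and Pdgfra did not.

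Across all genes tested, 749 passed an adjusted p of 0.05 in limma (5.4% of those tested), 379 of them higher with the label (2.73%) and 370 lower (2.67%). The median difference was 2.16 among the genes that rose and -3.04 among those that fell, against 0.0018 over all genes tested. The 4 labelled and 4 unlabelled libraries did not overlap for 298 of the 379 and 255 of the 370. Without any choice by p, the libraries did not overlap for 688 genes higher with the label (4.96%) and 562 lower (4.05%). The count rests on the way limma shares the spread between genes: with one prior variance for all genes in place of a trend with level and robust priors, 172 passed, 75 higher and 97 lower, and 135 of the 749 were among them. It also fell to 376, 378, 396 and 429 when Pdgfra 2, Axin2 2, Axin2 1 or Pdgfra 1 was left out, and 264 of the 749 passed whichever single library was left out.

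**Figure D1:**
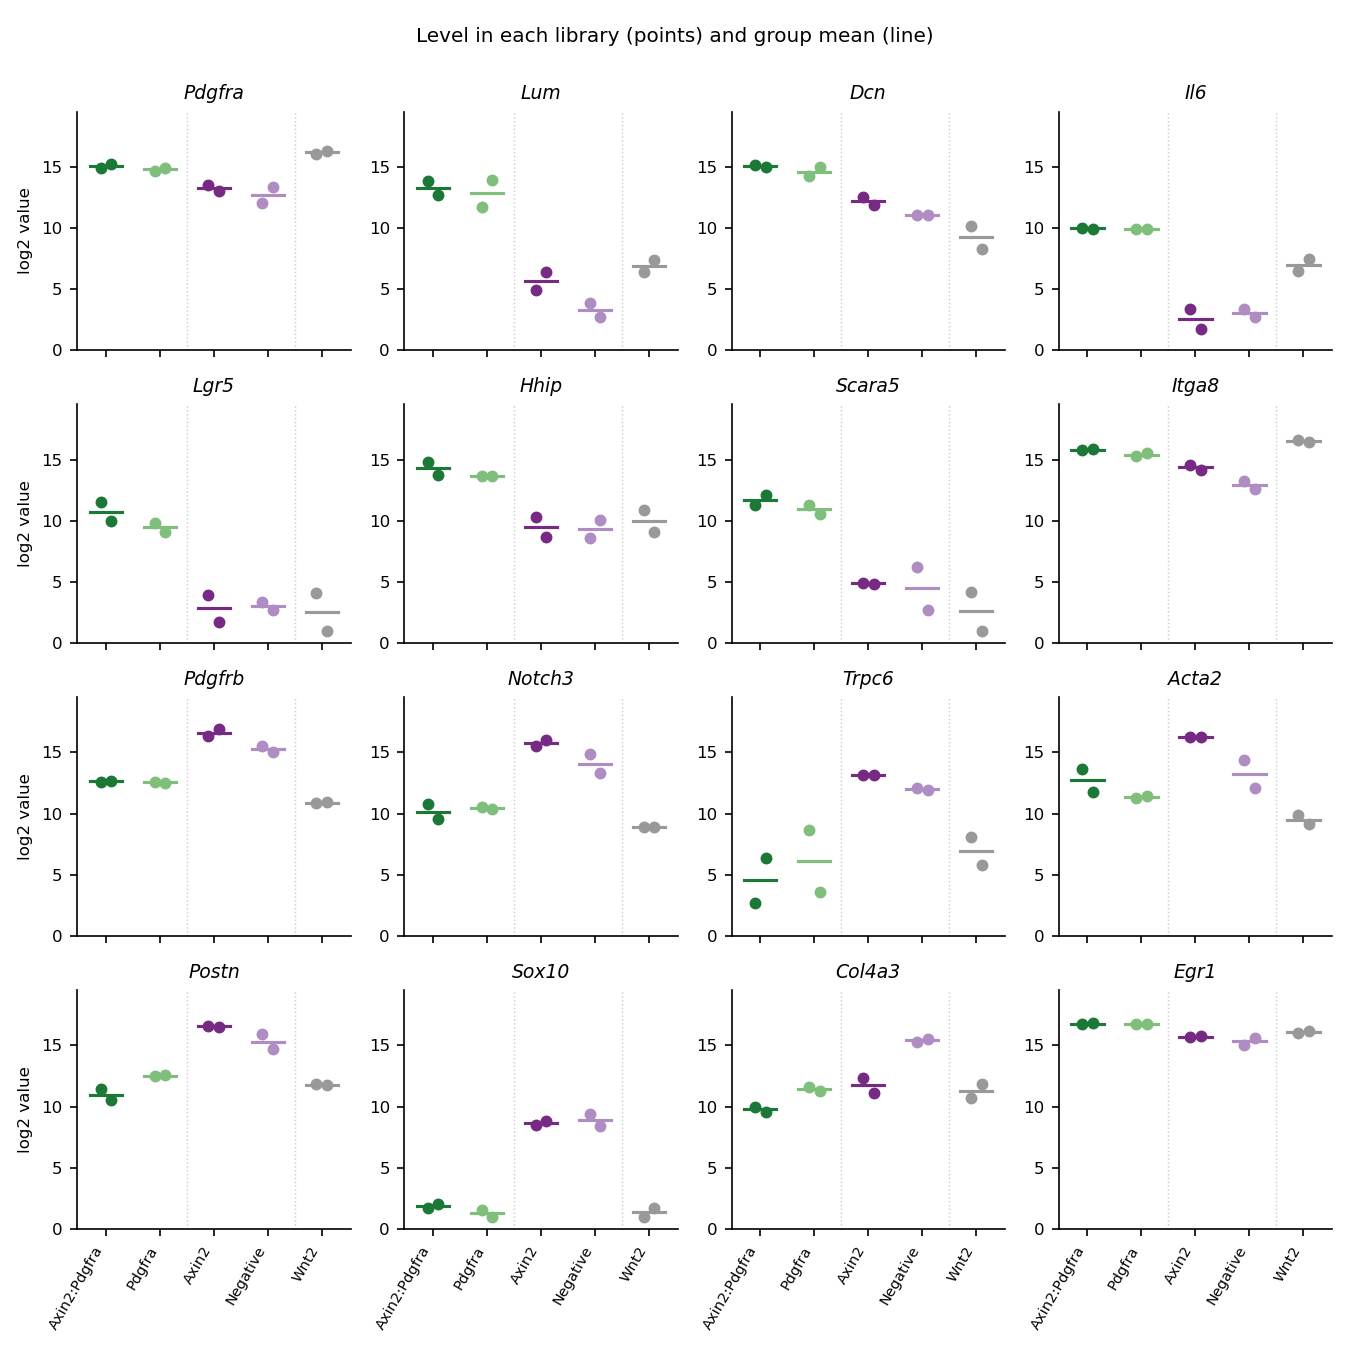
Level of 16 genes (log2 value, vertical axis) in each library (points) with the mean of each group (line); the Wnt2 libraries at the right of each panel were not in the contrast. In the panels of Lum, Il6, Lgr5 and Pdgfrb the 4 labelled libraries (green) do not overlap the 4 unlabelled ones (purple), whereas for Col4a3 and Acta2 the unlabelled groups lie apart from each other.

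The libraries differed in ways that the labels do not give. Genes listed at the lowest value of their library made up 2.09% of the table in Pdgfra 2 and 8.02% to 18.4% in the other 7 libraries of the contrast, with 15.0% in Axin2:Pdgfra 2 and 18.4% in Negative 2. Spearman correlations across genes were 0.764 to 0.856 between the 2 libraries of a group (4 pairs) and 0.643 to 0.804 between libraries that differ in both labels (8 pairs), ranges that overlapped each other. The first principal component, with 25.1% of the variance, put the 4 labelled libraries at -118 to -64.5 and the 4 unlabelled ones at 35.4 to 164. Xist, expressed from the inactive X chromosome, was at 8.57 in Negative 2, where 4 Y-linked genes stood at 9.73 to 10.74, and Xist was at 16.68 or above in the other 7. Of the barcodes in the labels, Axin2:Pdgfra 1, Pdgfra 1 and Negative 2 share one second index and the other 5 libraries share another. Within each index the difference kept its sign for 379 of 379 and 370 of 370 genes in the larger set, and for 378 and 363 in the smaller, a direction that the choice of genes partly fixes.

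Pericyte genes were lower with the label almost throughout. Pericytes are the mural cells of capillaries, set in the endothelial basement membrane and marked by Pdgfrb, Cspg4 and Notch3. Of 18 pericyte genes tested, 15 fell with the Pdgfra label and 0 rose, against 2.67% and 2.73% of all genes, and the list median was -3.85. Every count of list members that passed is to be read beside these shares. Members and lists were chosen with earlier results of these data known, so the shares give no measure of enrichment. The count stayed at 14 or 15 whichever single library was left out, and was 7 with one prior variance for all genes. Their summed level, on the log2 scale, was 15.14 to 15.78 in the labelled libraries and 17.50 to 19.32 in the unlabelled ones, with no overlap.

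Rgs4, a regulator of G protein signalling, stood at 3.36, 5.08, 8.73 and 7.58 in the labelled libraries and 13.87, 13.75, 12.49 and 11.76 in the unlabelled ones. Each labelled library lay below each unlabelled one, by -6.78 ± 0.65 (SE, adjusted p = 4.89e-05), and the Axin2 libraries were the highest. Notch3, the Notch receptor of mural cells, was at 10.79, 9.56, 10.57 and 10.38 in the labelled libraries and 15.505, 16.05, 14.86 and 13.28 in the unlabelled ones. Again the groups did not overlap, with a difference of -4.60 ± 0.38 (SE, adjusted p = 1.56e-05). Gucy1a1, a subunit of the soluble guanylate cyclase that answers nitric oxide, was at 13.03, 12.28, 12.67 and 13.49 in the labelled libraries and 16.74, 16.80, 16.28 and 15.13 in the unlabelled ones, a difference of -3.37 ± 0.27 (SE, adjusted p = 1.42e-05) with no overlap. Pdzd2, a protein with several PDZ domains, differed by -3.04 ± 0.21 (SE, adjusted p = 2.27e-06), and Trpc6, a cation channel of contractile cells, by -7.23 ± 1.08 (SE, adjusted p = 0.00112). Trpc6 was nearly uniform without the label, at 13.12, 13.20, 12.10 and 11.90, and spread widely with it, at 2.70, 6.38, 8.68 and 3.62. The 3 pericyte genes that did not pass were the channel subunits Abcc9 and Kcnj8 and the laminin chain Lamc3, with differences of 1.17 (adjusted p = 0.185), 1.59 (adjusted p = 0.229) and 0.72 (adjusted p = 0.585), each above 0; they and other members given here as values that did not pass were chosen after their values were seen.

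Smooth muscle contractile genes that passed fell with the label too. Of 18 tested, 9 fell and 0 rose, with a list median of -2.20; leaving out one library gave 6 to 11, and one prior variance for all genes gave 2. Acta2, smooth muscle alpha-actin, stood at 13.65, 11.80, 11.24 and 11.42 in the labelled libraries and 16.28, 16.25, 14.35 and 12.09 in the unlabelled ones. The Axin2 libraries were the highest and Negative 2 lay within the labelled range, so the groups overlapped; the difference was -2.71 ± 0.45 (SE, adjusted p = 0.0023). Actc1, cardiac alpha-actin, was at 6.47, 5.55, 7.63 and 9.85 in the labelled libraries and 14.69, 14.62, 12.76 and 10.27 in the unlabelled ones, with every labelled library below every unlabelled one and a difference of -5.71 ± 0.67 (SE, adjusted p = 0.000205). Des, the intermediate filament desmin, and Synpo2, an actin-binding protein of the sarcomere and stress fibre, fell, with differences of -2.34 ± 0.32 (SE, adjusted p = 0.000601) and -3.005 ± 0.38 (SE, adjusted p = 0.000278), each without overlap. The other 5 that fell were Actg2, Cnn1, Myh11, Myl9 and Tpm2, of which Myh11 lost its call without any single one of 6 libraries. Mylk, myosin light chain kinase, was the one member with a difference above 0, at 0.51 (adjusted p = 0.077). The summed level of the list was 16.23 to 16.94 with the label and 16.30 to 18.49 without it, so the sums overlapped, Negative 2 lying within the labelled range.

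CArG boxes, the sites of serum response factor in contractile genes (CC, then 6 bases that are A or T, then GG, a form that reads alike on both strands), were looked for in RefSeq promoter windows of GRCm38.p6 from 250 bases before to 50 bases after each start site. The files were made on mm9, so these windows serve only for their letters. Of 18 contractile genes 14 had a window and 3 held a CArG box (Actc1, Myl9 and Ldb3), against 1.81% of 27025 genes; Actc1 and Myl9 fell with the label and Ldb3 did not pass. The 200 bases that end at the base before the start site are printed for the 2 genes that fell, 5′ to 3′ on the gene's strand, with the CArG box in capitals.
Actc1, chr2:114052876-114053075, minus strand: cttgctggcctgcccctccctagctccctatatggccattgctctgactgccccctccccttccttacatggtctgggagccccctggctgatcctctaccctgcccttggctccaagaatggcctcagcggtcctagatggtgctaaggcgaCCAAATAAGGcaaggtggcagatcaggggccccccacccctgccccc
Myl9, chr2:156775264-156775463, plus strand: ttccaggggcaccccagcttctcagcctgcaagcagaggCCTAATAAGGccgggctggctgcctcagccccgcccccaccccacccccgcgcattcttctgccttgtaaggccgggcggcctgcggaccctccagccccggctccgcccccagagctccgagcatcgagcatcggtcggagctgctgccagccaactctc
The box lies at -47 to -38 from the start site of Actc1 and at -161 to -152 from that of Myl9. Myl9, the regulatory light chain of myosin, was at 12.68, 12.11, 10.88 and 10.43 in the labelled libraries and 14.40, 14.70, 12.81 and 11.46 in the unlabelled ones. The labelled libraries Axin2:Pdgfra 1 and 2 lay within the unlabelled range, and the difference was -1.82 ± 0.35 (SE, adjusted p = 0.00602), a call that is lost without Axin2 2. A match is a description of these letters and shows no binding.

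Receptors and enzymes that set vascular tone split in both directions. Of 20 tested, 7 fell and 2 rose, with a median of -0.87; the count of falls was 4 without Axin2 1, and that of rises was 1 without Pdgfra 2; with one prior variance for all genes 2 fell and 1 rose. Agtr1a, the angiotensin II receptor, stood at 3.62, 7.504, 9.32 and 3.35 in the labelled libraries and 12.35, 12.51, 11.93 and 11.92 in the unlabelled ones, with no overlap and a difference of -6.23 ± 1.16 (SE, adjusted p = 0.00531). Pde5a, the phosphodiesterase that degrades cyclic GMP, was at 12.68, 12.17, 13.21 and 12.87 in the labelled libraries and 16.14, 16.28, 15.61 and 14.03 in the unlabelled ones, a difference of -2.78 ± 0.29 (SE, adjusted p = 8.43e-05). Gucy1a2, another guanylate cyclase subunit, fell, with a difference of -3.64 ± 0.57 (SE, adjusted p = 0.00177). The 2 that rose were Adra1a, the alpha-1A adrenergic receptor, by 3.83 ± 0.56 (SE, adjusted p = 0.000932), and Rgs2, by 1.70 ± 0.33 (SE, adjusted p = 0.00726). Adra1a was at 12.53, 11.10, 12.11 and 13.66 in the labelled libraries and 9.504, 8.54, 8.03 and 8.02 in the unlabelled ones, so each labelled library lay above each unlabelled one.

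Notch pathway genes moved downward where they moved. Notch receptors release, on contact with a ligand on a neighbouring cell, a fragment that joins RBPJ at target genes such as the Hey family and Nrarp. Of 17 tested, 4 fell with the label (Notch3, Nrarp, Heyl and Notch1) and 0 rose, with a median of -0.93; without Axin2:Pdgfra 2, without Axin2 2 or with one prior variance for all genes the count was 2. Nrarp was at 7.83, 6.74, 8.83 and 7.66 in the labelled libraries and 12.52, 12.96, 11.36 and 11.24 in the unlabelled ones, with no overlap and a difference of -4.26 ± 0.58 (SE, adjusted p = 0.000559). Heyl, at 13.38, 12.52, 11.76 and 12.88 in the labelled libraries and 14.51, 15.02, 13.499 and 13.17 in the unlabelled ones, fell, with a difference of -1.41 ± 0.30 (SE, adjusted p = 0.0126) with overlapping groups, and Notch1 fell with -1.29 ± 0.29 (SE, adjusted p = 0.0157). The letters GTGGGAA of the RBPJ motif, searched on both strands, stood in the promoter windows of 2 of 13 Notch pathway genes (Hey2 and Lfng, neither past the threshold), against 7.25% of all genes with a window.

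**Figure D2:**
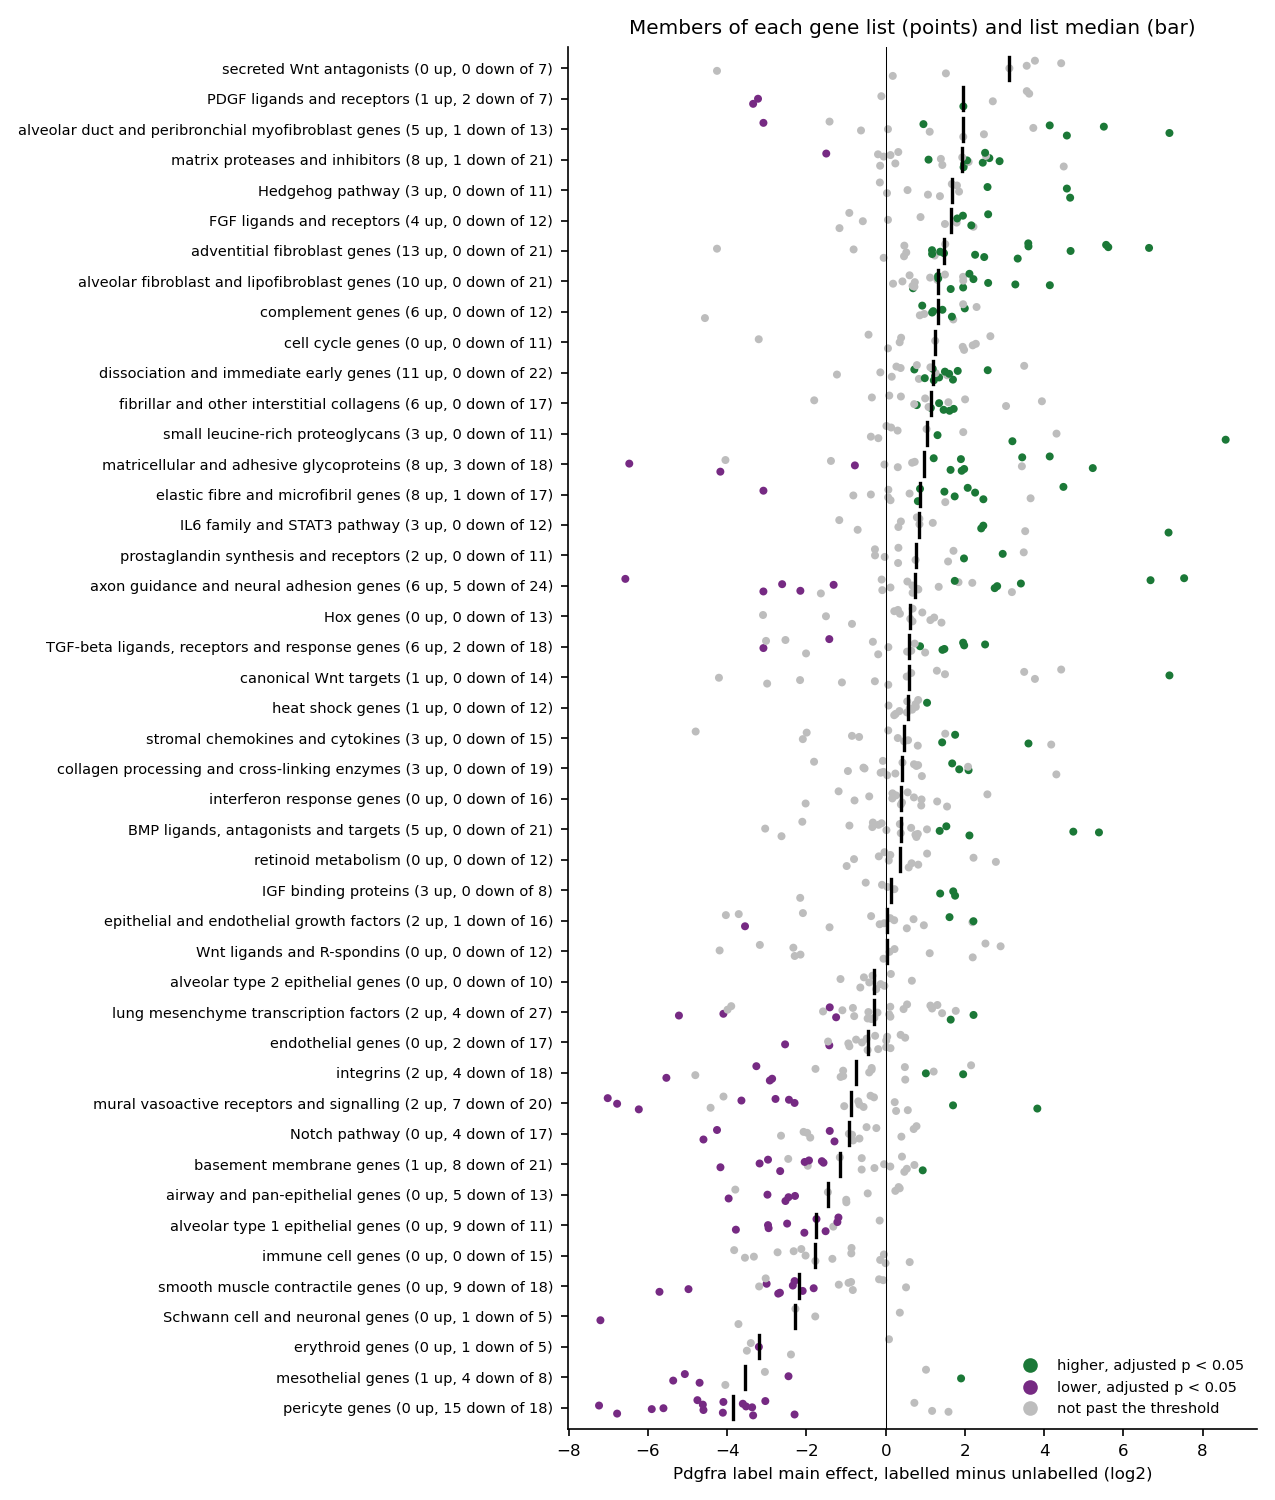
Difference that goes with the Pdgfra label (log2, labelled minus unlabelled, horizontal axis) for each tested member (points) of each gene list with 5 or more tested members; the bar is the list median. Pericyte genes lie at the bottom with 15 of 18 lower and a median of -3.85, whereas adventitial and alveolar fibroblast genes lie to the right with 13 of 21 and 10 of 21 higher.

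Fibroblast genes rose with the label where they passed. Adventitial fibroblasts surround the large vessels and airways and express Pi16, Col14a1 and complement C3. Of 21 adventitial genes tested, 13 rose and 0 fell, with a median of 1.47; without Pdgfra 2 the count was 7, and with one prior variance for all genes it was 2. Scara5, a scavenger receptor for ferritin, stood at 11.29, 12.12, 11.27 and 10.55 in the labelled libraries and 4.91, 4.83, 6.24 and 2.67 in the unlabelled ones. Every labelled library was far above every unlabelled one, by 6.65 ± 1.02 (SE, adjusted p = 0.00146), and Negative 2 was listed at its lowest value. Serpinf1, which encodes pigment epithelium-derived factor, was at 13.97, 13.51, 11.38 and 12.96 in the labelled libraries and 9.52, 8.99, 5.66 and 8.98 in the unlabelled ones, a rise of 4.67 ± 0.67 (SE, adjusted p = 0.000799) without overlap. Col14a1, a collagen that binds to fibrils, was at 14.34, 13.80, 12.67 and 13.45 in the labelled libraries and 12.99, 11.92, 9.76 and 9.63 in the unlabelled ones. Here Axin2 1 lay above Pdgfra 1, so the groups overlapped, and the rise was 2.49 ± 0.34 (SE, adjusted p = 0.000609). C3 and Gsn, the actin-severing protein gelsolin, rose by 1.17 ± 0.14 (SE, adjusted p = 0.000246) and 1.17 ± 0.15 (SE, adjusted p = 0.000458). Of the 21 members 18 had a difference above 0 and 3 below it. Those 3 did not pass in limma: Sfrp2 with -4.26 (adjusted p = 0.151), Cd248 with -0.81 (adjusted p = 0.421) and Dpp4 with -0.05 (adjusted p = 0.987). Ly6a, Cd34, Dpt, Entpd2 and Il33, each above 0, did not pass either. The summed level of the list was 17.66 to 18.61 with the label and 16.45 to 17.58 without it, with no overlap, the Axin2:Pdgfra libraries being the highest.

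Alveolar fibroblast and lipofibroblast genes, which mark the fibroblasts of the gas-exchange region, were counted next. Of 21 tested, 10 rose, 0 fell and all 21 had a difference above 0, with a median of 1.33. Leaving out Pdgfra 2 gave 5, leaving out Axin2:Pdgfra 1, Axin2:Pdgfra 2 or Axin2 2 gave 6, and one prior variance for all genes gave 1. Itga8, the alpha-8 integrin chain that binds nephronectin, stood at 15.74, 15.85, 15.27 and 15.54 in the labelled libraries and 14.57, 14.16, 13.28 and 12.58 in the unlabelled ones. The groups did not overlap, with a rise of 1.96 ± 0.20 (SE, adjusted p = 7.45e-05), and the Negative libraries were the lowest. Vegfd, a growth factor of lymphatic vessels, was at 14.27, 14.29, 13.70 and 13.79 in the labelled libraries and 12.98, 12.06, 10.86 and 11.28 in the unlabelled ones, a rise of 2.21 ± 0.28 (SE, adjusted p = 0.000318). Fgfr4, a fibroblast growth factor receptor, rose by 2.59 ± 0.38 (SE, adjusted p = 0.000932) and Bmp3 by 2.11 ± 0.31 (SE, adjusted p = 0.00102), both without overlap.

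In the Wnt2 libraries, which the contrast did not use, the fibroblast lists parted. Of the 10 alveolar genes that rose, 9 had a Wnt2 mean on the labelled side of the midpoint between the labelled and unlabelled means, the exception being Adh1. Of the 13 adventitial genes that rose, 1 did (Has1), and for 11 both Wnt2 libraries lay below all 4 labelled libraries. Itga8 was at 16.58 and 16.45 in the Wnt2 libraries, above every labelled library, whereas Scara5 was at 4.19 and 1 and Serpinf1 at 6.46 and 5.55, below every labelled one. Over all genes with a higher labelled mean, 66.6% had a Wnt2 mean on the labelled side. For the 15 pericyte genes and the 9 contractile genes that fell, the Wnt2 mean was on the labelled, low, side for 15 and 9. The same held for 90.5% of all 370 genes that fell and 59.4% of all genes with a lower labelled mean. Mouse line and lineage cannot be told apart in the Wnt2 libraries, and no test was made on them.

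**Figure D3:**
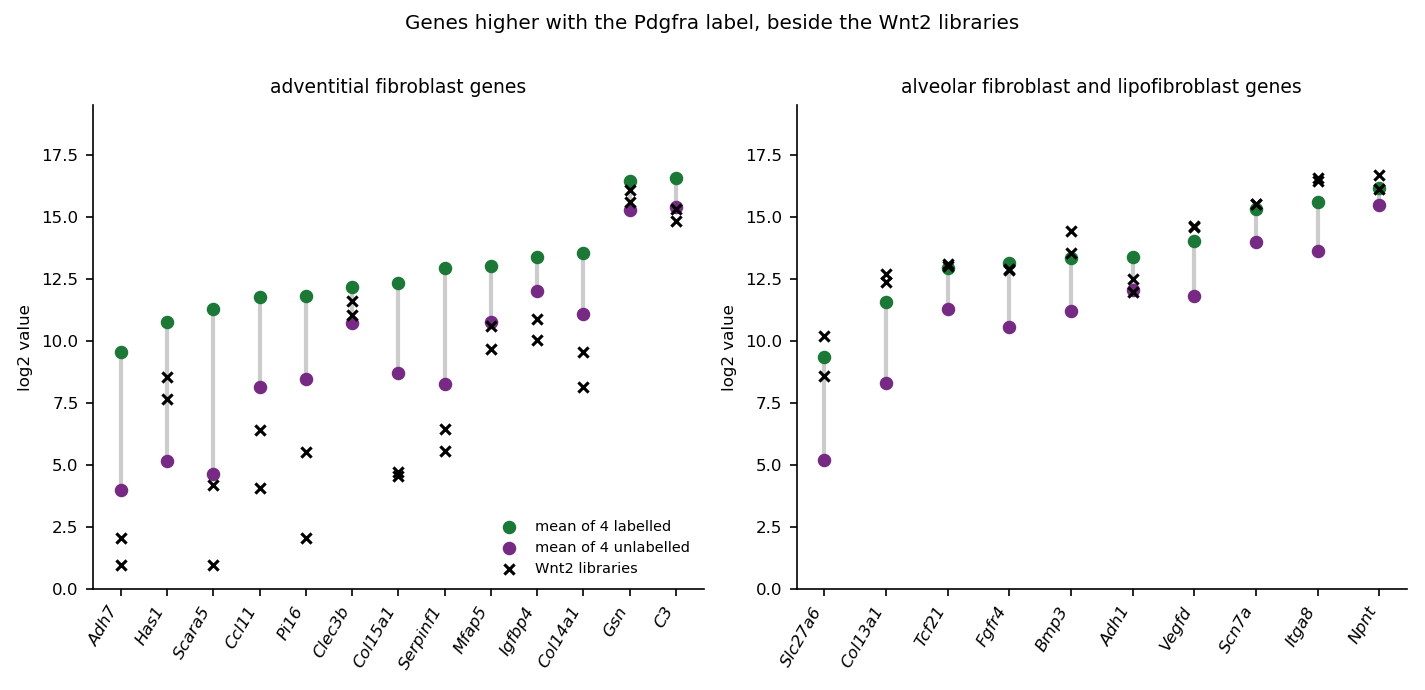
Level (log2 value) of the 13 adventitial (left) and 10 alveolar (right) fibroblast genes that rose with the Pdgfra label: mean of the 4 labelled libraries (green), mean of the 4 unlabelled ones (purple), and the 2 Wnt2 libraries (crosses). The mean of the crosses is nearer the unlabelled mean for 12 of 13 genes on the left and nearer the labelled mean for 9 of 10 on the right.

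Genes of the myofibroblasts of alveolar ducts and of the cells around airways included some of the largest rises. Of 13 tested, 5 rose (Hhip, Lgr5, Tgfbi, Mapk4 and Enpp2) and 1 fell (Ltbp2), with a median of 1.96. Leaving out Axin2:Pdgfra 1, Axin2:Pdgfra 2, Pdgfra 1 or Axin2 1 gave 3 rises, and one prior variance for all genes gave 3 rises and 0 falls. Mapk4 is named although it lies outside the naming rule, since the count is small. Lgr5, a receptor for R-spondins and a target of Wnt signalling, stood at 11.52, 9.96, 9.80 and 9.09 in the labelled libraries and 3.96, 1.75, 3.36 and 2.67 in the unlabelled ones. Axin2 2 and Negative 2 were listed at their lowest values and no unlabelled library came near the labelled ones; the fitted difference was 7.16 ± 1.23 (SE, adjusted p = 0.00315). Tgfbi, a matrix protein induced by TGF-beta, was at 13.01, 12.53, 12.30 and 12.36 in the labelled libraries and 10.37, 7.96, 7.25 and 8.05 in the unlabelled ones, a rise of 4.14 ± 0.57 (SE, adjusted p = 0.000636) with no overlap. Ltbp2, a latent TGF-beta binding protein of microfibrils, went the other way, at 12.42, 12.51, 11.42 and 12.22 in the labelled libraries and 15.47, 16.39, 15.02 and 14.03 in the unlabelled ones. Its difference was -3.09 ± 0.29 (SE, adjusted p = 4.83e-05), with no overlap. For all 5 that rose both Wnt2 libraries lay below all 4 labelled libraries.

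Hedgehog ligands from the epithelium signal to the mesenchyme through Ptch and Smo to the Gli factors, and Hhip is both a target and an inhibitor of the ligands. Of 11 Hedgehog pathway genes tested, 3 rose with the label and 0 fell, with a median of 1.67. Hhip stood at 14.79, 13.76, 13.69 and 13.68 in the labelled libraries and 10.28, 8.64, 8.61 and 10.09 in the unlabelled ones. The lowest labelled library lay well above the highest unlabelled one, and the rise was 4.57 ± 0.46 (SE, adjusted p = 6.79e-05). Boc, a co-receptor, was at 13.33, 13.55, 12.61 and 12.58 in the labelled libraries and 10.59, 11.80, 10.92 and 8.48 in the unlabelled ones, a rise of 2.57 ± 0.49 (SE, adjusted p = 0.00617) without overlap. Gli1, the factor that is itself a target, was at 10.29, 10.60, 8.02 and 10.47 in the labelled libraries and 8.71, 7.60, 1.79 and 2.67 in the unlabelled ones. Both Negative libraries had it at their lowest value, while Axin2 1 lay within the labelled range (adjusted p = 0.0188), so no fold is given, and the call was lost without any one of Axin2:Pdgfra 1 and 2, Pdgfra 2 and Axin2 1 and 2. The letters GGGTGGTC of the Gli motif, on both strands, stood in 0 of 8 promoter windows of the list, against 0.933% of genes. Leaving out one library gave counts of 2 to 4, and one prior variance for all genes gave 2.

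Fibrillar collagens are the load-bearing proteins of the interstitium. Of 17 interstitial collagen genes tested, 6 rose and 0 fell, with a median of 1.14 and a range of 4 to 8 when one library was left out, and 0 passed with one prior variance for all genes. Col1a1, a chain of type I collagen, stood at 15.16, 14.77, 14.40 and 15.01 in the labelled libraries and 13.44, 14.02, 12.48 and 12.95 in the unlabelled ones. The groups did not overlap, the rise was 1.61 ± 0.24 (SE, adjusted p = 0.000986), and the Negative libraries were the lowest. Col3a1 was at 15.95, 15.41, 15.09 and 15.85 in the labelled libraries and 14.52, 14.501, 12.84 and 13.57 in the unlabelled ones, a rise of 1.72 ± 0.23 (SE, adjusted p = 0.000461), and Col1a2 and Col6a3 rose by 1.46 ± 0.19 (SE, adjusted p = 0.000458) and 1.35 ± 0.22 (SE, adjusted p = 0.00211). Among 19 genes of collagen processing and cross-linking 3 rose, namely Lox, Loxl1 and Adamts2, with differences of 2.09 (adjusted p = 0.00161), 1.86 (adjusted p = 0.012) and 1.68 (adjusted p = 0.0432). That count was 1 without Pdgfra 2 or Axin2 2 and 5 without Negative 2, and with one prior variance for all genes it was 0.

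Small leucine-rich proteoglycans coat collagen fibrils and set their spacing. Of 11 tested, 3 rose (Lum, Dcn and Ogn) and 0 fell, with a median of 1.03; without Negative 0 the count was 5, and with one prior variance for all genes it was 3. Lum, lumican, stood at 13.84, 12.65, 11.68 and 13.92 in the labelled libraries and 4.91, 6.35, 3.85 and 2.67 in the unlabelled ones. No unlabelled library came within 5 log2 units of a labelled one; the fitted difference was 8.58 ± 0.85 (SE, adjusted p = 6.25e-05), and Negative 2 was listed at its lowest value. Dcn, decorin, was at 15.14, 14.997, 14.21 and 14.97 in the labelled libraries and 12.55, 11.88, 11.04 and 11.07 in the unlabelled ones. It was high in all 8 libraries and higher in each labelled one, by 3.20 ± 0.27 (SE, adjusted p = 1.56e-05). Ogn, osteoglycin, rose by 1.31 ± 0.25 (SE, adjusted p = 0.00561) with overlapping groups. In the Wnt2 libraries Dcn was at 10.17 and 8.24, below every library of the contrast, and Lum at 6.38 and 7.35, whereas Ogn was at 15.77 and 15.68, above all 8.

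Elastic fibre genes, matricellular proteins and proteases rose more often than they fell. Of 17 elastic fibre and microfibril genes 8 rose and 1 fell (Ltbp2), with a median of 0.87, and the rises numbered 5 without Axin2:Pdgfra 2. Fbln1, fibulin 1, was at 14.52, 14.45, 13.19 and 13.46 in the labelled libraries and 12.32, 12.39, 10.43 and 10.62 in the unlabelled ones, a rise of 2.47 ± 0.26 (SE, adjusted p = 9.59e-05) with no overlap. Efemp1, fibulin 3, rose by 1.74 ± 0.26 (SE, adjusted p = 0.00116), while elastin itself, Eln, gave 1.504 (adjusted p = 0.19) and did not pass. Of 18 matricellular and adhesive glycoproteins 8 rose and 3 fell. Thbs1, thrombospondin 1, stood at 15.56, 15.66, 16.14 and 15.41 in the labelled libraries and 14.44, 14.59, 13.09 and 12.73 in the unlabelled ones, a rise of 1.98 ± 0.20 (SE, adjusted p = 6.55e-05), and Fn1, fibronectin, rose by 1.21 ± 0.16 (SE, adjusted p = 0.000511) and Tnc, tenascin C, by 1.92 ± 0.27 (SE, adjusted p = 0.000636). Postn, periostin, fell: it was at 11.44, 10.502, 12.52 and 12.56 in the labelled libraries and 16.58, 16.53, 15.92 and 14.68 in the unlabelled ones. The groups lay about 2 log2 units apart at their nearest and the difference was -4.17 ± 0.29 (SE, adjusted p = 2.27e-06). Sparc and Spp1, osteopontin, also fell, with differences of -0.78 (adjusted p = 0.00483) and -6.47 (adjusted p = 0.00633). Of 21 matrix proteases and inhibitors 8 rose and 1 fell (Reck), with a median of 1.93. Adamts1, at 14.44, 14.48, 14.96 and 14.46 in the labelled libraries and 13.24, 12.66, 11.47 and 11.17 in the unlabelled ones, rose by 2.45 ± 0.25 (SE, adjusted p = 6.79e-05) and Mmp2, gelatinase A, by 1.97 ± 0.27 (SE, adjusted p = 0.000659). Leaving out Pdgfra 1, Pdgfra 2 or Axin2 2 gave 4 protease rises, and leaving out Axin2:Pdgfra 2 or Axin2 1 gave 5; the fall of Reck was lost without any of these 5 libraries, and with one prior variance for all genes 0 proteases passed. With the same setting 2 elastic fibre genes rose and 0 fell, and 2 matricellular genes rose and 1 fell.

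Basement membranes are sheets of type IV collagen, laminins and proteoglycans under epithelium and around mural cells. Of 21 of their genes tested, 8 fell and 1 rose (Lama4, by 0.93 (adjusted p = 0.0115)), with a median of -1.16; leaving out one library gave 7 to 10 falls and, without Axin2:Pdgfra 2, Pdgfra 2, Axin2 1 or Axin2 2, 0 rises, and one prior variance for all genes gave 2. Col4a1 and Col4a2, the chains of the type IV collagen found in most basement membranes, fell together. Col4a2 stood at 13.62, 13.73, 13.54 and 14.10 in the labelled libraries and 15.45, 15.64, 15.85 and 15.80 in the unlabelled ones. The highest labelled library lay below the lowest unlabelled one, a difference of -1.94 ± 0.18 (SE, adjusted p = 4.62e-05), and Col4a1 fell, with a difference of -1.61 ± 0.17 (SE, adjusted p = 0.000105). Col4a3, a chain made in the lung by type 1 cells of the alveolar epithelium, was at 9.97, 9.56, 11.62 and 11.32 in the labelled libraries and 12.35, 11.13, 15.30 and 15.56 in the unlabelled ones. It was far higher in the Negative libraries than in any other and Axin2 2 lay within the labelled range, so that its difference of -2.97 ± 0.35 (SE, adjusted p = 0.000205) came with overlap. Lama3, a laminin chain of epithelium, was at 10.54, 11.40, 10.04 and 10.69 in the labelled libraries and 11.88, 11.41, 15.22 and 14.80 in the unlabelled ones; its difference was -2.66 ± 0.35 (SE, adjusted p = 0.000445), the Negative libraries again being far above the others and Axin2 2 barely above Axin2:Pdgfra 2. Of 18 integrin chains 4 fell (Itga1, Itga3, Itga4 and Itgb6) and 2 rose (Itga8 and Itga9), the rises numbering 1 without any one library other than Negative 0. With one prior variance 0 integrins rose and 1 fell. Itga4, at 6.81, 5.08, 6.76 and 6.59 in the labelled libraries and 12.32, 12.18, 11.71 and 11.16 in the unlabelled ones, fell, with a difference of -5.54 ± 0.71 (SE, adjusted p = 0.000362) with no overlap.

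In the IL6 family 3 genes rose with the label. IL6 signals through its receptor and gp130 to STAT3, and oncostatin M acts through Osmr. Of 12 tested, 3 rose (Il6, Osmr and Il6ra) and 0 fell, with a median of 0.85, and with one prior variance for all genes 1 passed. Il6 stood at 9.99, 9.89, 9.89 and 9.92 in the labelled libraries and 3.36, 1.75, 3.36 and 2.67 in the unlabelled ones. The labelled libraries lay close together, Axin2 2 and Negative 2 were listed at their lowest values, so the fitted difference of 7.14 ± 1.22 (SE, adjusted p = 0.00294) depends on those values. Osmr was at 14.23, 14.000, 13.63 and 14.01 in the labelled libraries and 11.62, 11.64, 11.68 and 11.08 in the unlabelled ones, a rise of 2.46 ± 0.28 (SE, adjusted p = 0.000134) with no overlap. Il6ra, at 11.27, 11.23, 11.24 and 11.79 in the labelled libraries and 6.91, 8.87, 11.14 and 8.97 in the unlabelled ones, rose by 2.41 ± 0.63 (SE, adjusted p = 0.0404), a call that 2 of the 8 single-library omissions kept. In the Wnt2 libraries Il6 was at 6.46 and 7.40 and Osmr at 13.55 and 13.90.

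Growth factors of the FGF, BMP and TGF-beta families rose where they passed, apart from Ltbp2 and Eng. Of 12 FGF genes 4 rose (Fgf7, Fgfr1, Fgfr3 and Fgfr4) and 0 fell, with a median of 1.64, and 0 passed with one prior variance for all genes; without Axin2:Pdgfra 2 or Pdgfra 2 the count was 1, and without Pdgfra 1 or Axin2 2 it was 2. Fgf7, keratinocyte growth factor made by mesenchyme for epithelium, stood at 11.74, 11.64, 11.03 and 12.02 in the labelled libraries and 9.79, 8.22, 8.97 and 10.80 in the unlabelled ones. It was highest with the label in each case, with Negative 2 close below, and the rise was 2.16 ± 0.57 (SE, adjusted p = 0.041), a call kept in 2 of the 8 single-library omissions. Fgf10 gave 1.496 (adjusted p = 0.122) and did not pass. Of 21 BMP genes 5 rose, among them Bmp3, Gdf10, Bmp7 and Bmper, and 0 fell, with a median of 0.38; Bmper lies outside the naming rule. That count was 1 without Pdgfra 2, Axin2 1 or Axin2 2, 2 without Axin2:Pdgfra 1, and 3 without Axin2:Pdgfra 2 or Pdgfra 1, and with one prior variance for all genes it was 1. Bmp3 was at 13.23, 13.13, 13.16 and 13.84 in the labelled libraries and 12.30, 12.04, 10.01 and 10.55 in the unlabelled ones, with no overlap. Of 18 TGF-beta genes 6 rose and 2 fell (Ltbp2 and Eng, an accessory receptor), with a median of 0.59, and without Axin2 2 the falls numbered 1; with one prior variance for all genes 0 passed in either direction. Ltbp1 rose by 1.48 ± 0.23 (SE, adjusted p = 0.00161) and the co-receptor Tgfbr3 by 1.43 ± 0.26 (SE, adjusted p = 0.00511).

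Among genes of the 3 Wnt lists only Lgr5 passed, where 2.73% of all genes tested passed as higher and 2.67% as lower. Of 14 canonical Wnt targets 1 rose, Lgr5, and 0 fell, and without Negative 0 the rises numbered 2. Of 12 Wnt ligands and R-spondins and 7 secreted antagonists 0 passed in either direction in limma. At an unadjusted p under 0.05 in limma the targets had 6 higher and 3 lower, against 9.27% and 8.85% of all genes tested. The ligands had 2 higher and 3 lower and the antagonists 3 higher and 1 lower. Of the antagonists 6 of 7 had a difference above 0, with a median of 3.12, and 3 to 5 stood below 6 in each unlabelled library. With one prior variance for all genes 0 ligands and 0 antagonists passed. Among the ligands Wnt4 was at 7.67, 8.73, 7.06 and 9.20 in the labelled libraries and 9.64, 10.47, 10.97 and 10.18 in the unlabelled ones, lower in each labelled library but with -2.15 (adjusted p = 0.119), and Wnt7a gave -4.19 (adjusted p = 0.14). The antagonist Wif1 was at 9.23, 7.92, 4.26 and 6.01 in the labelled libraries and 1.55, 3.70, 1.79 and 2.67 in the unlabelled ones, at the lowest value in 3 of the 4 unlabelled libraries, with adjusted p = 0.104. Wnt5a, which is outside the naming rule, gave 1.11 (adjusted p = 0.151).

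Secreted factors and enzymes of 6 further lists were counted in the same way. Of 8 IGF binding proteins 3 rose: Igfbp3 by 1.75 ± 0.24 (SE, adjusted p = 0.000591), Igfbp5 by 1.70 ± 0.28 (SE, adjusted p = 0.00244) and Igfbp4 by 1.38 (adjusted p = 0.00915); with one prior variance for all genes 0 passed. Of 12 complement genes 6 rose and 0 fell, with a median of 1.32, and with one prior variance for all genes 0 passed. Serping1, which encodes the C1 inhibitor, and C7, a part of the membrane attack complex, rose by 0.92 (adjusted p = 0.00313) and 1.43 (adjusted p = 0.00507). Of 15 stromal chemokines and cytokines 3 rose (Ccl11, Csf1 and Cxcl1), by 3.60 (adjusted p = 0.0165), 1.75 (adjusted p = 0.032) and 1.43 (adjusted p = 0.0345), and the count was 0 or 1 without any one of the 4 labelled or 2 Axin2 libraries, and 0 with one prior variance. Of 16 growth factors for epithelium and endothelium 2 rose (Vegfd and Igf1) and 1 fell, Hbegf, with -3.55 ± 0.65 (SE, adjusted p = 0.00486); the rises numbered 1 without Axin2:Pdgfra 1, Pdgfra 2, Axin2 1, Axin2 2 or Negative 0, and with one prior variance 0 of the 3 passed. Of 11 prostaglandin genes 2 rose, Ptgis, prostacyclin synthase, by 1.98 ± 0.36 (SE, adjusted p = 0.0044) and Ptger2 by 2.95 (adjusted p = 0.0436), and 1 of them passed without any one library other than Negative 0, and 0 with one prior variance. Retinoid genes gave 0 calls among 12 in limma, with Aldh1a1 at 0.58 (adjusted p = 0.0617). At an unadjusted p under 0.05 in limma 2 were higher and 0 lower, against 9.27% and 8.85% of all genes tested.

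Transcription factors of lung mesenchyme moved in both directions, where 2.67% of all genes tested fell and 2.73% rose. Of 27 tested, 4 fell (Ebf1, Tbx5, Meox1 and Heyl) and 2 rose (Tcf21 and Meox2), with 12 differences above 0, 15 below it and a median of -0.29; with one prior variance for all genes 0 passed. The rises numbered 0 without Axin2:Pdgfra 1, Axin2:Pdgfra 2, Pdgfra 2 or Axin2 1 and 1 without Pdgfra 1 or Negative 0. Without Axin2 2 the falls numbered 1, and without Axin2:Pdgfra 2 or Pdgfra 1 they numbered 2. Ebf1, a factor of pericytes and adipocytes, stood at 8.53, 6.31, 8.48 and 9.49 in the labelled libraries and 12.76, 13.15, 12.12 and 11.18 in the unlabelled ones, a difference of -4.10 ± 0.60 (SE, adjusted p = 0.000987) with no overlap. Tcf21, a factor of lipofibroblasts, was at 13.61, 13.33, 12.03 and 12.78 in the labelled libraries and 11.500, 12.98, 10.45 and 10.26 in the unlabelled ones; Axin2 2 lay within the labelled range and the rise was 1.64 ± 0.37 (SE, adjusted p = 0.0185). Tbx5 fell, with a difference of -1.25 ± 0.25 (SE, adjusted p = 0.00901). Of 13 Hox genes 0 passed in limma, with Hoxb2 at -3.10 (adjusted p = 0.344) and Hoxa2 at 1.41 (adjusted p = 0.389). At an unadjusted p under 0.05 in limma 0 Hox genes were higher and 0 lower, against 9.27% and 8.85% of all genes tested.

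Genes of axon guidance and neural adhesion moved in both directions. Of 24 tested, 6 rose and 5 fell, and with one prior variance for all genes 3 rose and 1 fell. Slit2, a ligand of Robo receptors, stood at 13.80, 14.10, 13.62 and 14.10 in the labelled libraries and 11.76, 10.78, 11.63 and 10.45 in the unlabelled ones, a rise of 2.75 ± 0.35 (SE, adjusted p = 0.000297), and its receptor Robo2 rose by 2.81 ± 0.46 (SE, adjusted p = 0.00215). Unc5c, a netrin receptor, was at 13.22, 13.10, 12.43 and 12.73 in the labelled libraries and 10.04, 8.97, 9.70 and 9.11 in the unlabelled ones, a rise of 3.41 ± 0.42 (SE, adjusted p = 0.000246) with no overlap. Penk, which encodes enkephalin precursors, was at 10.69, 10.03, 7.86 and 9.30 in the labelled libraries and at the lowest value in all 4 unlabelled ones (adjusted p = 0.00313), so no fold is given. Clstn2, calsyntenin 2, went down: it was at 3.62, 4.74, 9.29 and 6.01 in the labelled libraries and 12.67, 12.98, 12.61 and 11.68 in the unlabelled ones, a difference of -6.57 ± 0.80 (SE, adjusted p = 0.000245) with no overlap. Sema3e, Sema3f, Unc5b and Ntn4, of which Ntn4 is outside the naming rule, also fell, each losing its call without 3 or more of the 8 libraries, and the count of falls was 1 without Pdgfra 2, 2 without Pdgfra 1, Axin2 1 or Axin2 2, and 3 without Axin2:Pdgfra 2 or either Negative library.

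Markers of other cells of the lung moved with the label, and their part in the results above was not tested. Of 11 genes of alveolar type 1 epithelium, the flat cells of gas exchange, 9 fell and 0 rose, with a median of -1.75, and with one prior variance for all genes 2 fell. Ager, the receptor for advanced glycation end products, stood at 11.15, 12.34, 12.67 and 12.30 in the labelled libraries and 12.96, 12.61, 15.77 and 15.32 in the unlabelled ones. The Negative libraries were the highest, Axin2 2 lay within the labelled range, and the difference was -2.05 ± 0.30 (SE, adjusted p = 0.000863). Rtkn2 and Emp2 fell, with differences of -3.78 (adjusted p = 0.000526) and -1.19 (adjusted p = 0.000607), each without overlap. The summed type 1 level was 15.45 to 17.00 with the label and 15.88 to 18.76 without it, and no member was at the lowest value in any library. Within the Axin2-labelled pair Col4a3 differed by -1.98 and Ager by -1.05, against -3.96 and -3.06 in the pair without the Axin2 label. Of 13 airway and pan-epithelial genes 5 fell (Cdh1, Krt19, Nkx2-1, Krt7 and Krt18), a count that was 0 without Pdgfra 2, Axin2 1 or Negative 0, 1 without Pdgfra 1 and 3 without any other single library except Axin2:Pdgfra 1, and 0 with one prior variance for all genes. Of 10 type 2 genes 0 passed in limma, with Sftpb at -0.64 (adjusted p = 0.41). At an unadjusted p under 0.05 in limma 0 were higher and 0 lower, against 9.27% and 8.85% of all genes tested. Their summed levels were 14.78 to 16.87 with the label and 14.83 to 17.17 without it.

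Endothelial, immune, mesothelial, glial and erythroid genes were counted in the same way, beside 2.67% of all genes tested that fell and 2.73% that rose. With one prior variance for all genes 0 endothelial and 0 immune genes passed, and 1 mesothelial, 1 glial and 1 erythroid gene fell. Of 17 endothelial genes 2 fell (Esam and Eng) and 0 rose; the falls numbered 0 without Axin2 2 and 1 without Axin2:Pdgfra 2, Pdgfra 1, Axin2 1 or Negative 2. The endothelial summed level was 15.10 to 17.13 with the label and 15.87 to 17.67 without it. Of 15 immune genes 0 passed in limma, although 14 had a difference below 0, with a median of -1.77. At an unadjusted p under 0.05 in limma 0 immune genes were higher and 4 lower, against 9.27% and 8.85% of all genes tested. Their sums were 13.59 to 15.33 with the label against 13.95 to 16.09 without it. Between 2 and 8 of 16 were at the lowest value in each of the 8 libraries. Of 8 mesothelial genes 4 fell (Gpm6a, Lrrn4, Upk3b and Krt19) and 1 rose (Upk1b, by 1.90 (adjusted p = 0.021)); their sums were 12.66 to 13.64 and 13.68 to 13.90, and the count of falls was 0 without Axin2 1 and 2 without Pdgfra 2, Axin2 2 or Negative 2. The rise of Upk1b was lost without Axin2:Pdgfra 1, Pdgfra 2, Axin2 2 or Negative 2. Sox10, the factor of Schwann cells, was at the lowest value in all 4 labelled libraries and at 8.48, 8.79, 9.38 and 8.45 in the unlabelled ones (adjusted p = 0.00524), the only one of 5 glial and neuronal genes to pass. Of 5 erythroid genes 1 fell, Hbb-bs, which stood at 6.85, 5.93, 9.99 and 9.32 in the labelled libraries and 7.59, 7.69, 14.997 and 14.62 in the unlabelled ones. Hemoglobin transcripts were high only in the Negative libraries, where the summed level was 16.02 and 16.50 against 8.45 to 11.09 in the other 6, and reads of their near-identical copies may be split between genes.

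**Figure D4:**
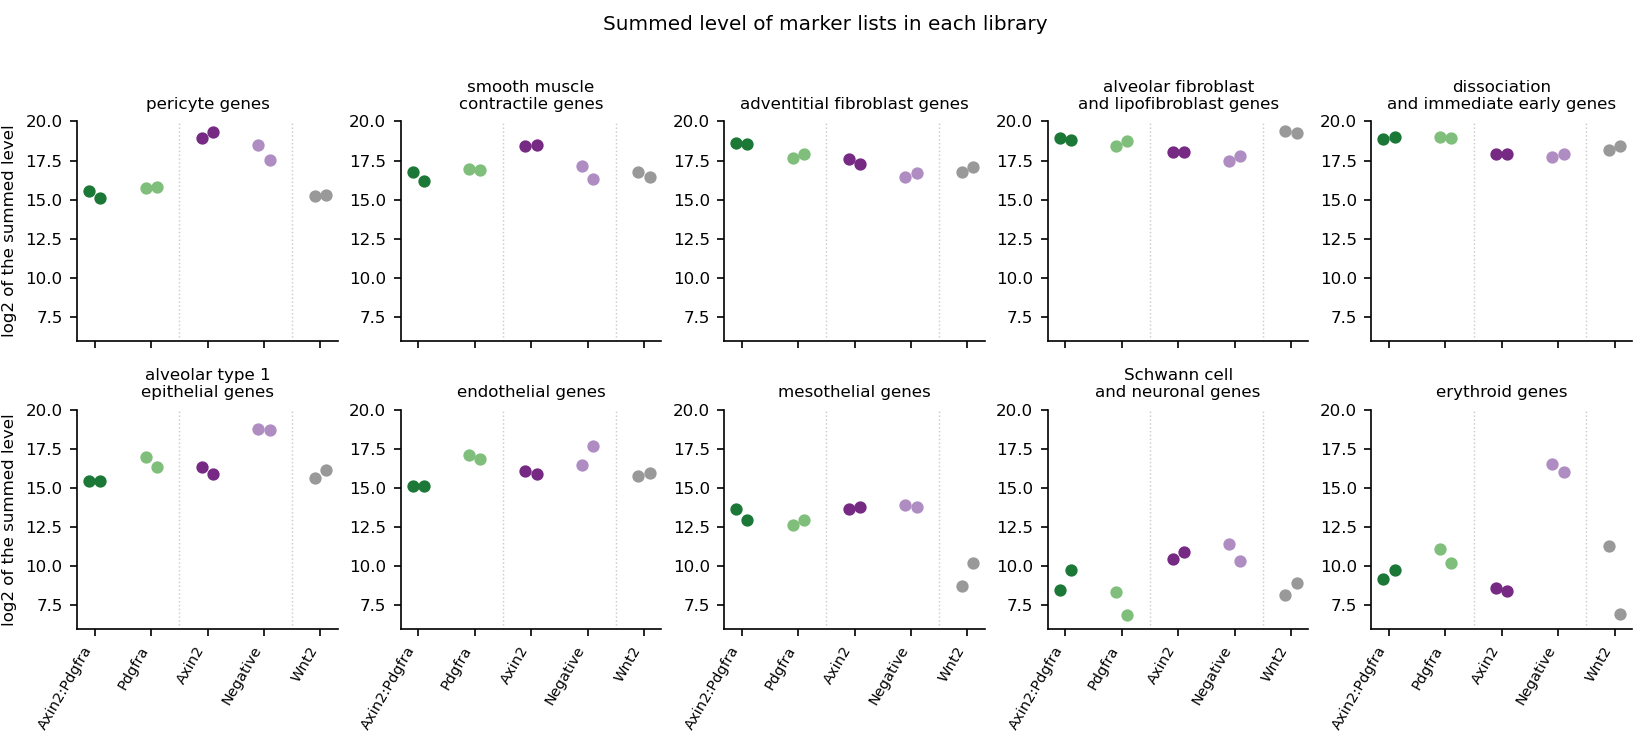
Summed level of marker lists (log2 of the sum, vertical axis) in each library (points), grouped by lineage. Pericyte, immediate early, alveolar fibroblast and Schwann cell genes separate the 4 labelled from the 4 unlabelled libraries, and adventitial and mesothelial genes do so narrowly. Type 1 epithelial and erythroid genes set the Negative libraries apart from the other groups.

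Immediate early genes are also induced by tissue dissociation and sorting. For the lists of this paragraph the shares of all genes tested were 2.73% higher and 2.67% lower. Of 22 tested, 11 rose and 0 fell, with a median of 1.20; without Pdgfra 1 the count was 7, and with one prior variance for all genes it was 0. Egr1, a zinc finger factor, stood at 16.74, 16.85, 16.74 and 16.74 in the labelled libraries and 15.66, 15.77, 15.08 and 15.58 in the unlabelled ones. The labelled libraries lay close together and above all unlabelled ones, by 1.25 ± 0.14 (SE, adjusted p = 0.000134). The highest value of any gene is 19.253 in each library, and the part of scaling in such near-equal values was not tested. Fosb was at 14.81, 15.34, 15.64 and 15.18 in the labelled libraries and 13.94, 13.73, 13.31 and 13.20 in the unlabelled ones, a rise of 1.70 ± 0.20 (SE, adjusted p = 0.000227), and Nr4a1 and Zfp36 rose by 1.82 ± 0.22 (SE, adjusted p = 0.000235) and 1.495 ± 0.18 (SE, adjusted p = 0.00025). The summed level of the list was 18.91 to 19.03 with the label and 17.72 to 17.95 without it, with no overlap. The part of these genes in the other rises was not tested. In the Wnt2 libraries the sum was 18.15 and 18.41. Of 12 heat shock genes 1 rose, Dnajb1, by 1.04 (adjusted p = 0.0265), and 0 rose without Axin2:Pdgfra 1, Pdgfra 2, Axin2 1 or Negative 0 or with one prior variance. All 12 heat shock genes nevertheless had a difference above 0, with a median of 0.58. At an unadjusted p under 0.05 in limma 7 of them were higher and 0 lower, against 9.27% and 8.85% of all genes tested. Their summed level was 17.60 to 17.94 with the label and 17.27 to 17.42 without it, with no overlap. Of 16 interferon response genes and 11 cell cycle genes 0 passed in limma, and 2 higher and 0 lower and 1 higher and 0 lower had an unadjusted p under 0.05, with Mki67 at 1.98 (adjusted p = 0.346). Of the Y-linked genes and Xist only Xist passed the filter on low values, and it differed by 2.32 (adjusted p = 0.684).

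The rises of largest size or smallest p held further genes, of which Lsamp belongs to the axon guidance list. Cilp, cartilage intermediate layer protein, stood at 10.58, 9.61, 10.38 and 10.82 in the labelled libraries and 4.74, 1.75, 1.79 and 5.55 in the unlabelled ones. No unlabelled library came near the labelled ones, and the rise was 6.89 ± 1.29 (SE, adjusted p = 0.00539), with Axin2 2 and Negative 0 at their lowest values. Smoc2, a matrix protein that binds calcium, was at 11.65, 11.16, 10.67 and 11.78 in the labelled libraries and 4.83, 6.96, 1.79 and 5.55 in the unlabelled ones, a rise of 6.53 ± 1.06 (SE, adjusted p = 0.00217). Cyp1b1, a cytochrome P450, was at 11.08, 10.47, 9.40 and 9.68 with the label and at the lowest value in 3 of the 4 unlabelled libraries (adjusted p = 0.00273). Lsamp, a neural adhesion molecule, was at 8.68, 9.64, 7.86 and 8.32 with the label and at the lowest value in all 4 without it (adjusted p = 0.00812). Trim67 and 1200007C13Rik were likewise at the lowest value in 3 of 4 unlabelled libraries, and Gm17056, a gene model with no known role, rose by 6.31 ± 1.14 (SE, adjusted p = 0.00436). Macf1, a giant protein that links microtubules to actin, had the smallest p of any rise. It was at 17.72, 17.72, 17.72 and 17.72 in the labelled libraries and 15.74, 15.49, 16.39 and 16.14 in the unlabelled ones, with a rise of 1.78 ± 0.12 (SE, adjusted p = 1.95e-06); its 4 labelled values are equal to 2 decimals, which leaves little spread behind that p. Ptprd, a receptor phosphatase, and Abca8a, a lipid transporter, rose by 2.27 ± 0.21 (SE, adjusted p = 3.81e-05) and 2.58 ± 0.24 (SE, adjusted p = 3.81e-05).

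The falls of largest size or smallest p held further genes too, of which Kcnmb1 belongs to the list of vascular tone. Slc4a8, a bicarbonate transporter driven by sodium, stood at 4.55, 2.06, 7.80 and 1.79 in the labelled libraries and 12.06, 10.45, 12.09 and 12.55 in the unlabelled ones. Pdgfra 1 was the highest of the labelled libraries and still below every unlabelled one, and the difference was -7.74 ± 1.27 (SE, adjusted p = 0.0023). Kcnmb1, a subunit of the calcium-activated potassium channel of smooth muscle, was at 2.70, 2.06, 5.45 and 1.16 in the labelled libraries and 11.69, 11.83, 9.94 and 5.97 in the unlabelled ones; Negative 2 came close to Pdgfra 1, and the difference of -7.02 ± 1.43 (SE, adjusted p = 0.00926) did not pass without Axin2 1 or without Axin2 2. Kcna1, a potassium channel, was at 8.49, 8.99, 10.63 and 9.18 without the label and at the lowest value in 3 of 4 labelled libraries (adjusted p = 0.00314), and Slc24a2 and the neuromedin receptor Nmur1 were at the lowest value in 3 and 4 of them. Tmem200a and Lrrc4c, a netrin-G ligand, fell, with differences of -7.69 ± 1.32 (SE, adjusted p = 0.00309) and -7.52 ± 1.25 (SE, adjusted p = 0.00243). Cdh2, N-cadherin, was at 7.43, 2.06, 5.45 and 1.95 in the labelled libraries and 10.504, 11.72, 10.73 and 11.14 in the unlabelled ones, a difference of -6.80 ± 1.30 (SE, adjusted p = 0.00636). Adcy8, an adenylyl cyclase, was at 7.45, 7.89, 9.34 and 8.32 in the labelled libraries and 14.27, 14.80, 14.45 and 12.21 in the unlabelled ones, a difference of -5.69 ± 0.52 (SE, adjusted p = 3.81e-05), and Pcdh18, a protocadherin, fell, with a difference of -3.87 ± 0.36 (SE, adjusted p = 3.81e-05). Olfr78, an olfactory receptor gene, gave -6.65 (adjusted p = 0.0268) and lost its call without 7 of the 8 libraries.

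The difference was then taken separately with and without the Axin2 label, in pairs of groups that share no library. Both pairs nevertheless take their spread from the same fit of all 8 libraries. Genes that passed in both are therefore not independent findings. In the Axin2-labelled pair (Axin2:Pdgfra minus Axin2) 252 genes passed (1.82%), 82 higher (0.591%) and 170 lower (1.23%). In the pair without the Axin2 label (Pdgfra minus Negative) 276 passed (1.99%), 183 higher (1.32%) and 93 lower (0.671%). Genes higher in both numbered 50, which is 61.0% of those higher in the first pair and 27.3% of those in the second. Genes lower in both numbered 39, which is 22.9% and 41.9%, and 0 passed in opposite directions. Across the 13867 genes the differences of the 2 pairs had a Pearson correlation of 0.29 and a Spearman correlation of 0.25, and 58.5% had the same sign; genes are not independent replicates. Of the genes that passed the contrast over all 8 libraries, 190 that rose and 171 that fell passed in neither pair alone. Each pair's count fell when one of its own libraries was left out, other than Negative 0. The first pair had 153, 114, 52 and 35 without Axin2:Pdgfra 1, Axin2:Pdgfra 2, Axin2 1 and Axin2 2, and the second had 67 and 40 without Pdgfra 1 and Pdgfra 2. With one prior variance for all genes the counts were 22 and 7.

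Genes that passed in both pairs included Lum, with 7.62 in the Axin2-labelled pair (adjusted p = 0.00434) and 9.54 in the pair without the Axin2 label (adjusted p = 0.00136). Hhip gave 4.81 in the Axin2-labelled pair (adjusted p = 0.00173) and 4.33 in the pair without the Axin2 label (adjusted p = 0.00354), and Osmr 2.48 in the Axin2-labelled pair (adjusted p = 0.00434) and 2.44 in the pair without the Axin2 label (adjusted p = 0.00488), so that these were of nearly equal size. Pdgfra itself gave 1.81 in the Axin2-labelled pair (adjusted p = 0.0302) and 2.11 in the pair without the Axin2 label (adjusted p = 0.0116). Among the falls Pdgfrb gave -3.995 in the Axin2-labelled pair (adjusted p = 1.06e-05) and -2.70 in the pair without the Axin2 label (adjusted p = 0.000507), Notch3 -5.61 in the Axin2-labelled pair (adjusted p = 8.87e-05) and -3.59 in the pair without the Axin2 label (adjusted p = 0.0034) and Postn -5.58 in the Axin2-labelled pair (adjusted p = 1.06e-05) and -2.76 in the pair without the Axin2 label (adjusted p = 0.00314). Their falls were larger in the Axin2-labelled pair as point estimates. For Thbs1 the point estimates ran the other way, with 1.10 in the Axin2-labelled pair (adjusted p = 0.0699) and 2.87 in the pair without the Axin2 label (adjusted p = 0.000485).

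Whether the pairs differ was tested by the interaction. The Axin2 label itself, taken over the same 8 libraries, passed for 171 genes (1.23%), 45 higher (0.325%) and 126 lower (0.909%). In limma 0 genes passed for the interaction, and 997 had an unadjusted p under 0.05 (7.19%); the smallest adjusted p was 0.349. With a standard error whose median was 1.58 log2 units, against 0.79 for the difference over all 8 libraries, this does not show that the pairs act alike. Pcdh1 and Mylk had the smallest p below 0 and Lama3 was among those above 0. Pcdh1, a protocadherin, stood at 11.25, 10.73, 13.36 and 13.42 in the labelled libraries and 14.66, 15.10, 14.06 and 14.58 in the unlabelled ones; it differed by -3.89 in the Axin2-labelled pair (adjusted p = 6.16e-05) and -0.93 in the pair without the Axin2 label (adjusted p = 0.218). Mylk was at 14.92, 14.74, 15.77 and 15.92 in the labelled libraries and 15.14, 15.19, 14.51 and 14.45 in the unlabelled ones, below 0 in the first pair at -0.34 and above it in the second at 1.37. Hba-a1, an alpha-globin gene, was at 6.89, 8.80, 9.54 and 7.21 in the labelled libraries and 6.46, 6.43, 14.61 and 14.501 in the unlabelled ones, high in the Negative libraries alone; its reads may be split with a near-identical copy. Xist and Pi15 passed when Negative 0 was left out.

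**Figure D5:**
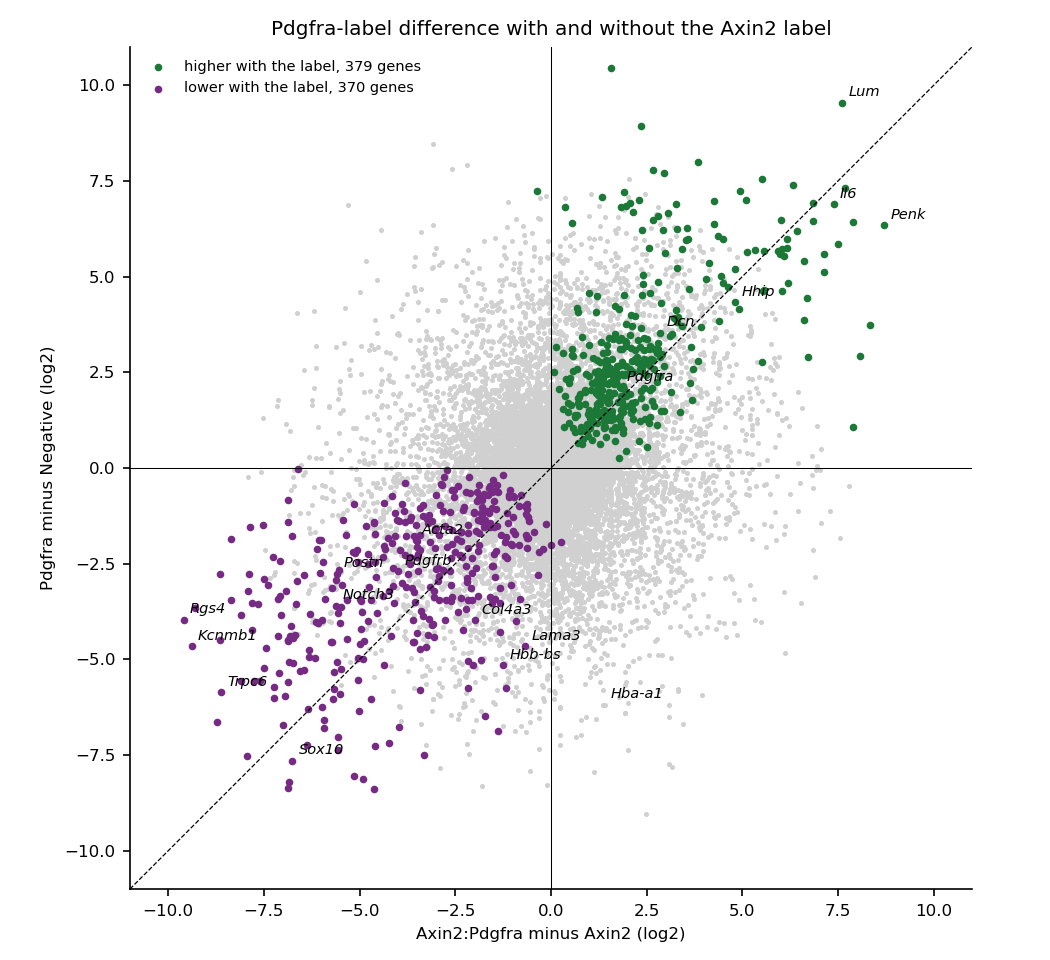
Difference that goes with the Pdgfra label in the Axin2-labelled pair (Axin2:Pdgfra minus Axin2, horizontal axis, log2) and in the pair without the Axin2 label (Pdgfra minus Negative, vertical axis, log2) for the 13867 genes tested; the dashed line marks equal differences. The 379 genes that rose over all 8 libraries (green) and the 370 that fell (purple) lie mostly in the upper right and lower left, as their choice from the mean of both axes makes them.

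The Wnt2 libraries were set beside all genes that passed. Their mean lay on the labelled side of the midpoint for 282 of the 379 that rose (74.4%), against 66.6% of all genes with a higher labelled mean. For the 370 that fell it did so for 335 (90.5%), against 59.4% of all genes with a lower labelled mean. Pdgfra was at 16.05 and 16.25 in the Wnt2 libraries, above all 8 libraries of the contrast, and Pdgfrb at 10.86 and 10.94, below all 8. Macf1, at 19.253 and 18.72, was above every labelled library, 19.253 being the highest value of any gene in each library. Postn, at 11.85 and 11.73, lay within the labelled range. Genes that rose with the label and were low in the Wnt2 libraries included Hhip at 10.90 and 9.04, Lgr5 at 4.07 and 1 and Tgfbi at 9.25 and 3.85.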

How the data were processed

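Per the labels, total RNA of sorted lung mesenchymal cells was isolated with Trizol and sequenced, 2 libraries per group. The values that the authors deposited are 1 number per Ensembl gene and library, read here as log2 expression from their range and their equal medians; STAR, limma and the mm9 build are named in the submitters' processing notes, without versions or roles. The sources used here do not give counting, strand or normalization, depth is unknown, and overlapping genes and near-identical copies cannot be told apart. Symbols matched 14720 of 14854 genes.

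The 8 libraries were fitted as 4 group means in limma 3.58.1 (R 4.3.3), with empirical Bayes moderation (trend and robust) and Benjamini-Hochberg adjustment over 13867 genes with a log2 value of 6 or more in at least 2 libraries. The threshold was an adjusted p of 0.05, and the fit was tested on simulated data. Genes were named by these rules: the 12 largest non-overlapping differences and the 8 smallest p in each direction, up to 4 passing members of each list and direction (2 members as values where none passed), 8 fixed genes, the 5 smallest p of the interaction in each direction, and 6 genes in each direction that differed most in both pairs. List members under the filter are left out of every count, and some genes that the rules name are not reported here. Others are named to spell out a small count. The members and lists were chosen with earlier results of these data known. The 2 Wnt2 libraries were left out of the fit, except in 1 alternative. Alternatives changed the filter, the lowest values, the model, the moderation, the scaling, the replicate block, the second index and each library in turn.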

Additional observations from a re-analysis of the deposited data

How the results depend on the processing

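The count of 749 genes was 751 with no filter, 687 with a log2 value of 8 or more in at least 4 libraries, 665 with values below 6 set to 6, 713 in the additive model, 923 with all 10 libraries, 769 with library weights, 747 with quantile normalization anew, 748 after centring and 656 with the second index as a term. With one prior variance for all genes it was 172 (75 higher, 97 lower), and leaving out 1 library gave 376 to 754 (160 to 481 higher, 165 to 341 lower). Within the Axin2-labelled pair the counts were 22 and 35 to 317, within the other pair 7 and 40 to 340. The Axin2 label passed for 171 genes, for 0 with one prior variance, for 75 with the second index, and for 5 to 331 with 1 library left out. The interaction gave 0 to 2. The cause was not tested.

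Libraries of equal replicate number showed no shared deviation across genes, with correlations of -0.059 to 0.029 over 6 pairs of groups. Such correlations cannot show whether equal numbers mark the same animals. In the replicate block Negative 0 is the only library of its number, so it is fitted exactly and adds nothing to the contrasts. That block therefore leaves the Negative group to Negative 2. With a replicate block 595 genes passed for the Pdgfra label (345 higher, 250 lower), 357 for the Axin2 label and 2 for the interaction (Xist and Pi15).

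Of 153 named genes past the threshold, 0 changed sign in any alternative, 46 kept the call with one prior variance and 114 to 139 with 1 library left out. Signs changed for 3 genes that did not pass. Pmp22 (-0.0063 over all 8 libraries) was 0.0686 with the replicate block, 0.0317 with the second index and -0.1068 to 0.0943 with a library left out. Axin2 was -0.0384 with the second index and -0.5596 to 0.6904 with a library left out, and Wnt2 was 0.0001 and -0.7176 to 0.6073. Values that are listed at the lowest of a library limit every fitted difference of low genes.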
